A study of Homo sapiens with 6 samples.

Results

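The Frizzled receptors are the family of cell surface proteins that bind WNT ligands, and the 10 human genes, FZD1 to FZD10, were taken by symbol from a deposited gene-level table of 23284 genes. All 10 were present and passed to testing in all 3 comparisons of the table. The table comes from an induction of neural crest, the migratory embryonic cells whose descendants include sensory neurons, Schwann cells, melanocytes and facial cartilage, from WA01 (H1) human embryonic stem cells, an established line of wildtype genotype. The 6 poly-adenylated RNA libraries fall into 3 groups of 2, namely ES cells on day 0, pre-neural crest cells (preNC) on day 3 and neural crest cells (NC) on day 5. The protocol text lists 3 µM CHIR99021, an inhibitor of the kinase GSK3, and, at the start, 10 µM of Y-27632, which blocks the kinase ROCK, a plating density of 20000 cells per cm2, 2% B27 and 0.5% serum albumin on Matrigel. It is the same for every library, ES cells included, so it does not show whether the day 0 cells had met the inhibitors. Nothing states that the 2 libraries of a group came from separate cultures, so the authors' tests may measure technical spread.

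A Frizzled receptor crosses the membrane several times and holds its ligand in a cysteine-rich domain outside the cell. Together with the co-receptor LRP5 or LRP6 it recruits Dishevelled, which disables GSK3 and lets beta-catenin enter the nucleus, whereas with ROR2, RYK or the VANGL proteins it acts in planar cell polarity, the pathway that orients cells within a sheet. WNT signalling through Frizzled is needed to form the neural crest in frog and chick embryos, and CHIR99021 acts below the receptor, at GSK3 itself.

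The family is described here in its usual subfamilies, FZD1, FZD2 and FZD7, then FZD5 and FZD8, then FZD3 and FZD6, and last FZD4, FZD9 and FZD10. Identity over the aligned coding bases (GENCODE v29) was 81.8% for FZD1 and FZD2, 81.2% for FZD2 and FZD7 and 80.8% for FZD1 and FZD7. It was 78.5% for FZD5 and FZD8, 73.6% for FZD9 and FZD10 and 63.2% for FZD3 and FZD6. The 8 pairs within these subfamilies ran between 62.6% and 81.8% (median 76.0%), and the 37 pairs between subfamilies between 51.0% and 71.3% (median 59.2%). FZD4 was closest to the members of its own group, FZD10 (63.1%) and FZD9 (62.6%), and next to FZD1 (59.9%). Seen from FZD9 and FZD10, however, FZD4 was further away than the first 2 groups. FZD9 had 62.6% identity to FZD4 but 65.5% to 66.5% to the 5 receptors of the first 2 groups, and FZD10 had 63.1% to FZD4 but 64.6% to 66.4% to those 5. The coding part lies in 1 exon in 7 members, in 2 exons in FZD4 and in 6 exons in each of FZD3 and FZD6.

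**Figure D1:**
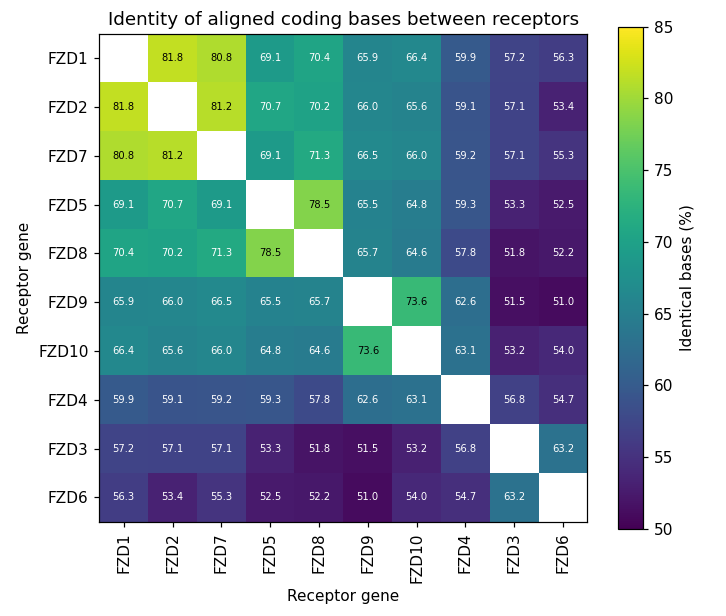
Heat map of the percent of identical bases between the coding sequences of each pair of Frizzled genes, with genes ordered by subfamily on both axes and the percent printed in each square. FZD1, FZD2 and FZD7 form the closest block, at 80.8% to 81.8%, and pairs from different subfamilies reach at most 71.3%.

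What all 10 receptors share is the short cytoplasmic motif that binds Dishevelled, a lysine and a threonine codon, then 3 codons of any kind, then a tryptophan codon. It was found exactly once in frame in each coding sequence. The 18 bases are shown for 8 members because this is the point where a Frizzled hands the signal on, and because codon choice differs even where the motif does not. Capitals mark the lysine, threonine and tryptophan codons, read 5′ to 3′ on the coding strand of GENCODE v29.
FZD1: AAGACCctcaactccTGG
FZD2: AAGACGctgcactcgTGG
FZD7: AAGACCctgcagtcgTGG
FZD5: AAGACGgtggagtcgTGG
FZD8: AAGACGctggagtccTGG
FZD4: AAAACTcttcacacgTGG
FZD9: AAGACTttccagaccTGG
FZD10: AAGACTctgcagtccTGG
The capitals differ only in the last base of the first 2 codons, with AAA in FZD4 alone among the 8. The tail behind the motif differs in length both between and within subfamilies, and only FZD1, FZD2 and FZD7 share the same length. It holds 17 codons in FZD1, FZD2 and FZD7, 33 in FZD4, 50 in FZD10, 54 in FZD9, 55 in FZD5, 81 in FZD8, 159 in FZD3 and 203 in FZD6. Closely related copies can also share reads. Stretches of 50 identical bases, sought over whole transcripts and on either strand, occurred in 4 of the 45 pairs. They numbered 32 between FZD1 and FZD2, 20 between FZD2 and FZD7, 3 between FZD5 and FZD8 and 3 between FZD2 and FZD5. The read length is not given in the sources used here, so reads from those stretches may have been split between the copies.

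Promoter sequence from RefSeq (GRCh38.p14) was matched for 5 members, FZD1, FZD4, FZD5, FZD8 and FZD9, over the 250 bases before the start of the gene. FZD1 and FZD5 are shown because, among these 5, they had the largest rise and the largest fall between ES cells and neural crest cells. Both are written 5′ to 3′ along the gene, FZD1 from the plus strand at chr7:91264183-91264432 and FZD5 from the minus strand at chr2:207769907-207770156. Capitals mark CTTTG, the core of the site for the beta-catenin partners TCF and LEF, and CCAAT, the CCAAT box, each on either strand.
FZD1: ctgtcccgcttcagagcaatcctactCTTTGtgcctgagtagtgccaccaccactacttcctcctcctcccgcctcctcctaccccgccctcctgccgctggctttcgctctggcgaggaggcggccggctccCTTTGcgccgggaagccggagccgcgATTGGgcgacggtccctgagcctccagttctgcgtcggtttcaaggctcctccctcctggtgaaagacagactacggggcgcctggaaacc
FZD5: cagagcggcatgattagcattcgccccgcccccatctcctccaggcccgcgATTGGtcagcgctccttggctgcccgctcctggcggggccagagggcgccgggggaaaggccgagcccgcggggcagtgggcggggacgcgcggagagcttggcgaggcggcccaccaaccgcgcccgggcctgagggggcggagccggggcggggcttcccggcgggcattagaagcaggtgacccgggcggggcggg
The FZD1 window holds CTTTG at 2 places and the FZD5 window at none, while both hold 1 CCAAT box, written as ATTGG on the gene's strand. CTTTG lies in 42.1% of 35116 RefSeq windows of this length, and among the 5 members in FZD1 alone. The longer forms CTTTGAT and CTTTGAA lie in 5.94% of all windows and in 0 of the 5. CCAAT lies in 32.0% of all windows and in 4 of the 5 members, all but FZD9. The octamer ATGCAAAT lies in 1.63% of windows and in 0 of the 5, and the GC box GGGCGG in 42.6% of windows and in all 5. These letter matches describe the windows and are not evidence of binding. The 5 windows were rich in G and C, with 65.2% in FZD1 and in FZD8, 72.4% in FZD9, 76.8% in FZD5 and 80.8% in FZD4, against a median of 58.0% over all windows.

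Levels are the authors' FPKM values, fragments scaled by transcript length and library size, with 1 value for each gene and day. No value per library was used, so neither a standard deviation nor the depth of a library can be given. The error given here is the implied standard error, which is the log2 ratio divided by the statistic that the authors' deposited table gives for its test. Solved for single days, it lay between 0.19 and 0.47 on the log2 scale over the 30 levels of the 10 receptors. Calls, higher or lower, go to genes whose q, the p-value adjusted over all tested rows, is below 0.05 in the authors' deposited table. The smallest q there is 0.000596. In bulk RNA, fewer cells expressing a receptor cannot be told apart from less RNA of it per cell.

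The labelled stages were checked against marker lists. Of all genes tested, 8.96% were called higher and 11.6% lower on day 3 against day 0. The shares were 5.93% and 6.68% on day 5 against day 3, and 12.2% and 14.7% on day 5 against day 0. The 6 ES cell markers summed to 1932, 178 and 57.6 FPKM on days 0, 3 and 5, and 6 of 6 were called lower on day 5 than on day 0. On day 3 against day 0, 5 of the 6 were lower, and on day 5 against day 3, 3 were. The 12 markers of the neural plate border and crest summed to 32.3, 27.0 and 242 FPKM. Of those tested, 8 of 11 rose and 2 fell (FOXD3 and ETS1) on day 3 against day 0. On day 5 against day 3, 11 of 12 rose and 0 fell, and on day 5 against day 0, 10 of 12 rose and 0 fell. FOXD3 stood at 17.9, 0.876 and 15.4 FPKM and ETS1 at 7.27, 1.11 and 6.14 FPKM. Neither was called on day 5 against day 0, and they made most of the day 0 sum. The 6 neural progenitor markers summed to 214, 489 and 189 FPKM, of which SOX2 made 203, 341 and 129. Of these 6, 4 rose and 0 fell on day 3 against day 0 (SOX2 not called), 1 rose (PAX6) and 3 fell (SOX1, SOX2 and SOX21) on day 5 against day 3, and 2 rose (PAX6 and LIX1) and 0 fell on day 5 against day 0. The 7 mesendoderm markers summed to 5.78, 5.06 and 3.39 FPKM. Among them T (brachyury), at 0.134, 0.777 and 0.0566 FPKM, rose on day 3 over day 0 and fell on day 5 against day 3, the directions called for FZD2, FZD8 and FZD9. GSC, at 0.147, 0.625 and 0.953 FPKM, and MESP1, at 0.210, 0.943 and 0.707 FPKM, were not called. EOMES (0.160, 0.0285 and 0.0316 FPKM) and SOX17 (listed at 0 on day 5) were not tested. In counts, 1 of 5 tested mesendoderm markers rose and 0 fell on day 3 against day 0, 0 of 5 rose and 1 fell on day 5 against day 3, and 0 of 4 rose and 1 fell (TBX6) on day 5 against day 0. The 5 endothelial markers summed to 13.6, 23.3 and 16.2 FPKM, of which TEK made 12.2, 21.5 and 15.3, while PECAM1 stood at 0.0674, 0.0784 and 0.0537 FPKM without a test. TEK rose on day 3 over day 0 (log2 0.82 ± 0.41), 1 of 3 tested, with 0 lower. None of 2 tested was called on day 5 against day 3, and on day 5 against day 0, 0 of 3 rose and 1 fell. The part of changing cell makeup in the receptor values was not tested.

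Most Frizzled genes were called in each comparison, with more rises than falls in the step to day 3 and more falls than rises in the step to day 5. On day 3 against day 0, 6 of the 10 rose (FZD1, FZD2, FZD3, FZD8, FZD9 and FZD10), 1 fell (FZD5) and 3 were not called. Of all genes tested, 8.96% of tested genes were called higher and 11.6% lower in that comparison. On day 5 against day 3, 1 rose (FZD10), 5 fell (FZD2, FZD5, FZD7, FZD8 and FZD9) and 4 were not called, against a background of 5.93% higher and 6.68% lower. On day 5 against day 0, 4 rose (FZD1, FZD2, FZD3 and FZD10), 2 fell (FZD5 and FZD7) and 4 were not called, against 12.2% higher and 14.7% lower. The median log2 ratio of the 10 receptors was 1.33, -0.23 and 0.43 in these comparisons, beside 0.038, -0.046 and -0.0089 over all tested genes. The comparisons share groups, so the calls in one are tied to those in the others. FZD4 and FZD6 are the members with no call in any comparison.

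**Figure D2:**
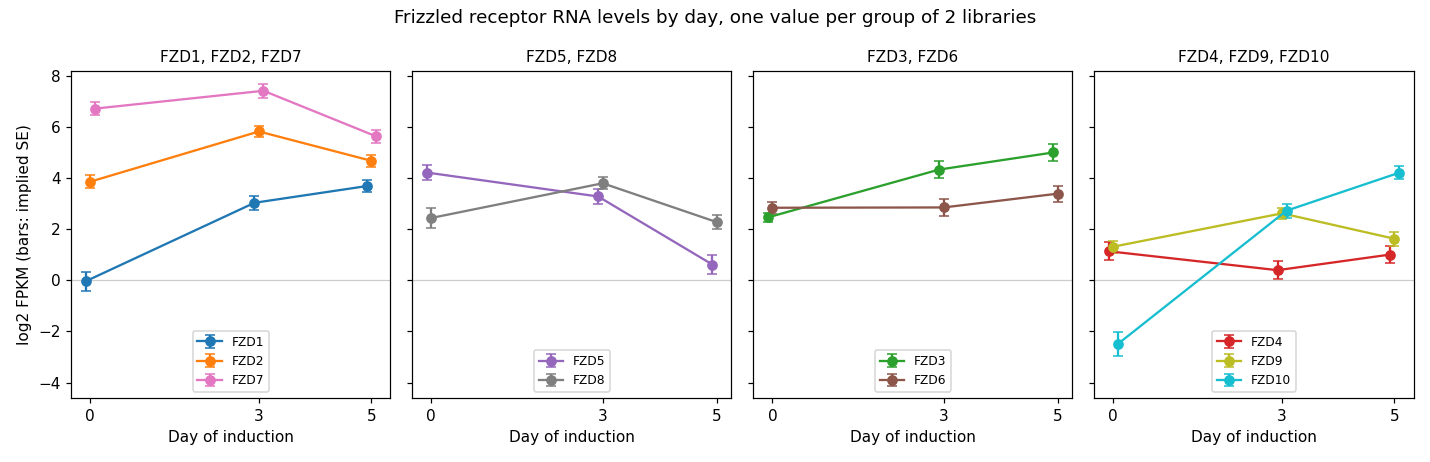
Log2 of FPKM of the 10 Frizzled genes against day of induction (0, 3 and 5), 1 panel per subfamily, with each point the authors' value of a group of 2 libraries and each bar 1 implied standard error to either side. FZD10 climbs through 0.178, 6.61 and 18.5 FPKM and FZD5 declines through 18.6, 9.72 and 1.54 FPKM, while FZD2, FZD7, FZD8 and FZD9 are highest on day 3.

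Within the first subfamily the 3 receptors took different courses. FZD7, the main Frizzled of human ES cells, stood at 105 FPKM on day 0, 171 on day 3 and 49.8 on day 5. FZD2, which in mouse shares functions with Fzd7 in closing embryonic tissues, stood at 14.5, 56.7 and 25.6 FPKM. FZD1, a receptor for canonical WNT ligands, stood at 0.976, 8.19 and 12.9 FPKM. FZD7 and FZD2 were thus both highest on day 3, and FZD1 was highest on day 5. The day 3 level of FZD7 was 1.62 times its day 0 level, a log2 ratio of 0.70 ± 0.37 (implied standard error). Its 95% interval, which treats the test statistic as normal, was -0.03 to 1.42. The authors' own test gave p = 0.0157 before adjustment, so the interval and the deposited p differ. After adjustment FZD7 missed the threshold, at q = 0.0705 in the authors' deposited table. FZD7 then fell on day 5 against day 3 (log2 -1.78 ± 0.37), and it was also lower on day 5 than on day 0 (log2 -1.08 ± 0.36), both at q = 0.000596 in the authors' deposited table. FZD2 rose 3.90-fold on day 3 over day 0 (log2 1.96 ± 0.34) and fell on day 5 against day 3 (log2 -1.15 ± 0.34), again with q = 0.000596 in the authors' deposited table. Its day 5 level remained 1.76 times that of day 0, with q = 0.0181 in the authors' deposited table. That last call ends when a normal p is computed from the test statistic, which gives an adjusted p of 0.107. FZD1 rose 8.39-fold on day 3 over day 0 (log2 3.07 ± 0.46) and stood 13.2-fold higher on day 5 than on day 0 (log2 3.72 ± 0.45), both with q = 0.000596 in the authors' deposited table. With a pseudocount of 1 FPKM these log2 ratios are 2.22 and 2.81. Its further step on day 5 over day 3, 0.66 ± 0.36 on the log2 scale, had q = 0.101 in the authors' deposited table. Between ES cells and neural crest cells the log2 change of FZD1 exceeded that of FZD7 by 4.80 ± 0.58 and that of FZD2 by 2.91 ± 0.56.

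FZD5 and FZD8, whose mouse counterparts act together in the developing eye and forebrain, went apart on day 3. FZD5 stood at 18.6 FPKM on day 0, 9.72 on day 3 and 1.54 on day 5. FZD8 stood at 5.43, 13.9 and 4.84 FPKM. On day 0 FZD5 was the higher of the pair and on day 5 FZD8 was, while on day 3 FZD8 lay above FZD5 by 0.52 ± 0.38 on the log2 scale, less than 2 combined standard errors. FZD5 fell on day 3 against day 0 (log2 -0.94 ± 0.41) at q = 0.00908 in the authors' deposited table, a call that ends at an adjusted p of 0.128 with a normal p of the test statistic. It fell further on day 5 against day 3 (log2 -2.66 ± 0.47), and the day 5 level was 12.1-fold below that of day 0 (log2 -3.60 ± 0.45), both at q = 0.000596 in the authors' deposited table. With a pseudocount of 1 FPKM the last log2 ratio is -2.95. The step of FZD5 between days 3 and 5, taken without a pseudocount, ranked 210 from the bottom of the 15932 tested genes. FZD8 rose on day 3 over day 0 (log2 1.36 ± 0.47) and fell on day 5 against day 3 (log2 -1.52 ± 0.37), with q = 0.000596 for each in the authors' deposited table. Its day 5 level differed from that of day 0 by -0.16 ± 0.49 (95% interval -1.13 to 0.80). The log2 change of FZD5 minus that of FZD8 was -2.30 ± 0.62 for day 3 against day 0 and -3.43 ± 0.67 for day 5 against day 0. For day 5 against day 3 it was -1.14 ± 0.60, with a 95% interval of -2.31 to 0.03.

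FZD3 and FZD6 act in planar cell polarity, axon guidance and closure of the neural tube in the mouse, and Fzd3 takes part in neural crest induction in Xenopus. FZD3 stood at 5.51 FPKM on day 0, 20.2 on day 3 and 32.1 on day 5. FZD6 stood at 7.16, 7.22 and 10.5 FPKM. In ES cells the levels of the pair lay within 2 combined standard errors, and in neural crest cells FZD3 was the higher. FZD3 rose 3.66-fold on day 3 over day 0 (log2 1.87 ± 0.38) and was 5.82-fold higher on day 5 than on day 0 (log2 2.54 ± 0.37), at q = 0.000596 for each in the authors' deposited table. The step between days 3 and 5, 0.67 ± 0.46, was not called, at q = 0.0831 in the authors' deposited table. FZD6 had log2 ratios of 0.012 ± 0.41 for day 3 against day 0 and 0.54 ± 0.46 for day 5 against day 3. Its log2 ratio of day 5 to day 0 was 0.55 ± 0.39, at q = 0.176 in the authors' deposited table. Over the same span the log2 change of FZD3 exceeded that of FZD6 by 1.99 ± 0.54, and between days 3 and 5 by 0.13 ± 0.65 (95% interval -1.15 to 1.40).

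FZD10, a Frizzled of the dorsal neural tube in chick and mouse embryos, had the largest change of the family. It stood at 0.178 FPKM on day 0, 6.61 on day 3 and 18.5 on day 5. FZD9, which lies in the region deleted in Williams syndrome, stood at 2.49, 6.15 and 3.09 FPKM. FZD4, the receptor of norrin in the vessels of the retina, stood at 2.20, 1.32 and 2.01 FPKM. So of this group FZD10 was lowest in ES cells and highest in neural crest cells. FZD10 rose 37.2-fold on day 3 over day 0 (log2 5.22 ± 0.54) and 2.79-fold on day 5 over day 3 (log2 1.48 ± 0.37), with q = 0.000596 for both in the authors' deposited table. It was 104-fold higher on day 5 than on day 0 (log2 6.70 ± 0.53). By this ratio, taken without a pseudocount, FZD10 ranked 106 from the top of 16409 tested genes. With a pseudocount of 1 FPKM its log2 ratios are 2.69 for day 3 over day 0 and 4.05 for day 5 over day 0. FZD9 rose on day 3 over day 0 (log2 1.30 ± 0.32) and fell on day 5 against day 3 (log2 -0.99 ± 0.35), with q values of 0.0097 and 0.046 in the authors' deposited table. Its fall ends as a call when p is adjusted over that comparison alone, at an adjusted p of 0.0738. The log2 ratios of FZD4 were -0.74 ± 0.50, 0.61 ± 0.50 and -0.13 ± 0.49 for day 3 against day 0, day 5 against day 3 and day 5 against day 0, with q values of 0.11, 0.221 and 0.859 in the authors' deposited table. Between ES cells and neural crest cells the log2 change of FZD9 minus that of FZD10 was -6.39 ± 0.65, while FZD4 minus FZD9 was -0.44 ± 0.61 (95% interval -1.63 to 0.75).

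**Figure D3:**
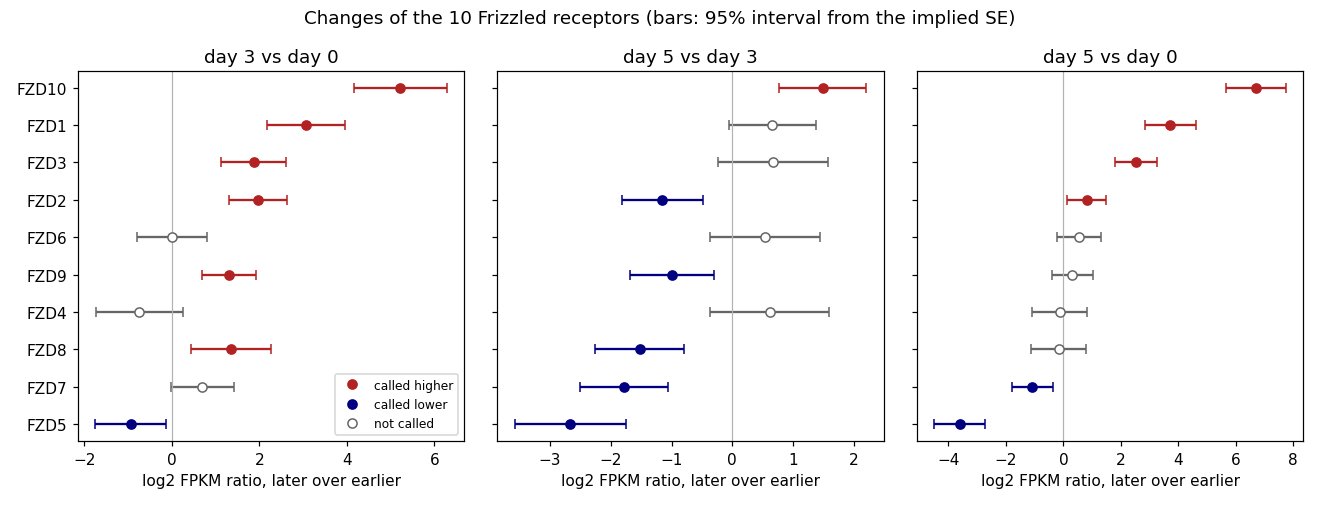
Log2 ratio of FPKM for each Frizzled gene in the 3 comparisons, later day over earlier day, with bars of the 95% interval from the implied standard error and filled points for genes called at q below 0.05. FZD10 lies at 6.70 and FZD5 at -3.60 for day 5 over day 0, and FZD4 and FZD6 carry no filled point.

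The receptors also differed in how their levels ranked within a day, read per transcript length under an annotation that the sources used here do not name. On day 0 the order was FZD7, FZD5, FZD2, FZD6, FZD3, FZD8, FZD9, FZD4, FZD1 and FZD10, and 5 of the 9 neighbouring pairs lay at least 2 combined standard errors apart. FZD7 led FZD5 by 2.50 ± 0.38 on the log2 scale. On day 3 the order was FZD7, FZD2, FZD3, FZD8, FZD5, FZD1, FZD6, FZD10, FZD9 and FZD4, with 3 such gaps, behind FZD7, behind FZD2 and before FZD4. On day 5 it was FZD7, FZD3, FZD2, FZD10, FZD1, FZD6, FZD8, FZD9, FZD4 and FZD5, with 1 such gap, between FZD6 and FZD8. FZD7 then led FZD3 by 0.63 ± 0.41, so the top of the order on day 5 was not separated.

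The summed level of the family was 162 FPKM on day 0, 301 on day 3 and 161 on day 5, with implied standard errors of 19.4, 33.3 and 13.1 FPKM if members vary independently. The day 5 sum was 0.990 times the day 0 sum (log2 -0.01 ± 0.21), and the day 3 sum was 1.85 times the day 0 sum (log2 0.89 ± 0.24). Scaling without 3 small RNA genes puts the day 5 sum at 177 FPKM. The makeup of that sum differed between the days. FZD7 held 64.8% of it on day 0, 56.8% on day 3 and 31.0% on day 5. Without FZD7 the other 9 summed to 57.1, 130.0 and 111 FPKM. In ES cells FZD5 followed FZD7 with 11.5%, and in neural crest cells FZD3 (20.0%), FZD2 (15.9%) and FZD10 (11.5%) did. FZD5 held 0.955% on day 5, and FZD10 held 0.110% on day 0. By subfamily, FZD3 and FZD6 held 7.80%, 9.10% and 26.5% on days 0, 3 and 5, FZD4, FZD9 and FZD10 held 3.00%, 4.68% and 14.7%, and FZD5 and FZD8 held 14.8%, 7.85% and 3.96%. Members with at least 10% of the sum were 2 in ES cells, 2 in preNC cells and 4 in NC cells.

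**Figure D4:**
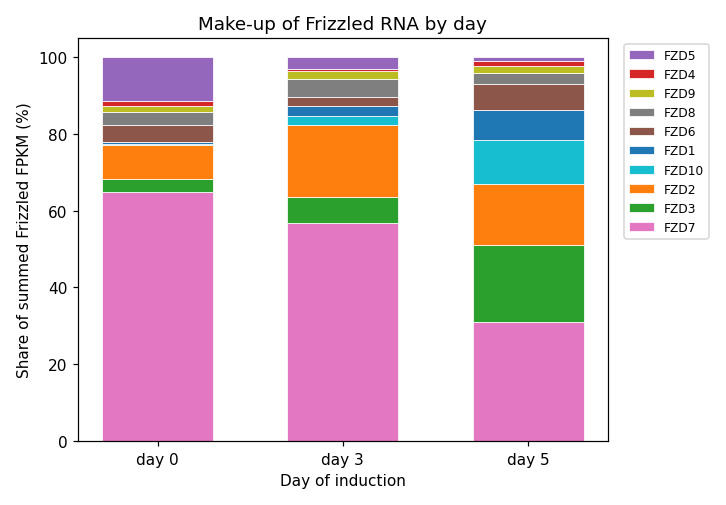
Stacked bars of the share of the summed Frizzled FPKM held by each gene, in percent, on days 0, 3 and 5. FZD7 takes 64.8%, 56.8% and 31.0%, and by day 5 FZD3, FZD2 and FZD10 hold 20.0%, 15.9% and 11.5%.

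The table's positions (hg19, counted from 1) place FZD10 at chr12:130647004-130650285. The gene FLJ31485 lies 780 bases before it, at chr12:130636138-130646223, and was singled out after its values were seen. It stood at 0.0263, 1.31 and 3.18 FPKM on days 0, 3 and 5, so both were lowest on day 0 and highest on day 5. The log2 ratio of FLJ31485 for day 5 to day 0 was 6.92 ± 0.94 at q = 0.016 in the authors' deposited table. It was taken without a pseudocount from a day 0 level near 0, so its size depends strongly on that low value. FZD8, at chr10:35927177-35930362, shares its locus with the microRNA gene MIR4683, which is listed at 69.4, 408 and 90.2 FPKM without a test. Both were highest on day 3, and reads of the shared stretch cannot be told apart. FZD1 lies at chr7:90893783-90898132 and FZD9 at chr7:72848109-72850450. FZD5 lies at chr2:208627310-208634143 and FZD7 on the same chromosome at chr2:202899310-202903160. FZD2 lies at chr17:42634812-42638630 and FZD4 at chr11:86656717-86666440. FZD3 lies at chr8:28351722-28431785, where it shares its locus with MIR4288, listed at 0, and FZD6 at chr8:104310661-104345094.

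For the 2 receptors with the largest rise and the 2 with the largest fall on day 5 against day 0, up to 3 genes with a near course are named, found among 10532 genes by the distance between their differences from day 0 on the scale of log2 of FPKM plus 1, over 3 groups. Nearest to FZD10 were TMEM132C (distance 0.12), ILDR2 (0.24) and COL2A1 (0.36), the last a cartilage collagen. Nearest to FZD1 were ST8SIA2 (0.16), a polysialic acid transferase, the chemokine receptor CXCR4 (0.17) and TMEM88 (0.20). FZD5 was followed by OLFML3 (0.097), YBX2 (0.11) and AKAP1 (0.23), and near FZD7 lay SLC12A8 (0.13) and the alkaline phosphatase ALPL (0.22). With 3 groups a course is only 2 differences, and the distances describe it with no test.

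The ligands of these receptors were counted in the same comparisons, where 8.96%, 5.93% and 12.2% of all genes tested were called higher and 11.6%, 6.68% and 14.7% lower. Of the WNT genes tested, 8 of 12 rose on day 3 over day 0 and 0 fell, 7 of 14 rose on day 5 over day 3 and 2 fell, and 11 of 14 rose on day 5 over day 0 and 0 fell. Their summed level was 6.52, 61.6 and 429.7 FPKM on days 0, 3 and 5, beside 162, 301 and 161 FPKM for the receptors. WNT1, a ligand of the dorsal neural tube, stood at 0.496, 23.1 and 301 FPKM. WLS, which carries WNT proteins to the surface, stood at 1.75, 74.0 and 310.3 FPKM. NOTUM, which strips the lipid by which WNT proteins hold on to Frizzled, stood at 0.160, 2.42 and 5.42 FPKM. PORCN, which adds that lipid, fell on day 5 against day 0, with levels of 7.58, 4.73 and 3.88 FPKM. Of these 3, 2 rose on day 3 over day 0, 1 rose on day 5 over day 3, and 2 rose and 1 fell on day 5 over day 0.

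The list of co-receptors and partner receptors also holds NDP, the gene of norrin, which is a ligand. NDP was tested and not called. Among the 11 tested genes of this list, 2 rose (18.2%) and 1 fell (9.09%) on day 3 against day 0. These shares are near the 8.96% and 11.6% of all genes tested. On day 5 against day 3, 2 rose and 2 fell (18.2% each way), beside 5.93% and 6.68%. On day 5 against day 0, 3 rose (27.3%) and 2 fell (18.2%), beside 12.2% and 14.7% (median log2 0.31). ROR2, the WNT5A receptor that pairs with Frizzled, stood at 1.63, 31.2 and 16.4 FPKM, a log2 ratio of 3.33 ± 0.40 for day 5 against day 0. TSPAN12, the partner of FZD4 in norrin signalling, rose on day 5 over day 0 (log2 1.04 ± 0.44), while FZD4 was not called. LRP5 fell on day 5 against day 0 (log2 -1.27 ± 0.32), and LRP6 had a log2 ratio of 0.18 ± 0.42 with no call. The glypican GPC4, a surface proteoglycan that holds WNT ligands, fell to 18.5 FPKM on day 5, against 111 on day 0. The other glypicans of the list went the other way where called. GPC6 rose to 10.6 FPKM on day 5, against 3.44 on day 0. GPC3 was called only on day 5 over day 3, as higher (log2 0.88 ± 0.43). SMO, the Hedgehog transducer of the same receptor class, stood at 29.9, 47.1 and 44.1 FPKM and was not called.

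Frizzled proteins are removed from the surface by the ubiquitin ligases RNF43 and ZNRF3, and R-spondins with their LGR receptors hold these ligases back. Of the 8 tested genes of this group, 5 rose (62.5%) and 0 fell on day 3 over day 0, beside 8.96% and 11.6% of all genes tested. Of 9 tested, 3 rose and 2 fell on day 5 against day 3, beside 5.93% and 6.68%, and 5 rose and 1 fell on day 5 against day 0 (median log2 1.88), beside 12.2% and 14.7%. ZNRF3 stood at 4.40, 9.85 and 9.78 FPKM, and RNF43, at 0.402, 2.91 and 1.48 FPKM, was not called. RSPO2 stood at 0.247, 4.62 and 14.5 FPKM and RSPO3 at 0.159, 0.727 and 10.7 FPKM, both highest on day 5. RSPO1, at 0.205, 3.20 and 2.78 FPKM, was highest on day 3, but its step on day 5 against day 3 was not called (log2 -0.21 ± 0.52). RSPO4, at 3.07, 3.51 and 1.01 FPKM, was called lower on day 5 than on either earlier day. LGR4 stood at 31.9, 74.8 and 29.9 FPKM, highest on day 3 as FZD7 was.

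Secreted antagonists compete with Frizzled for ligand or block its co-receptors. The list counted here also holds KREMEN1 and KREMEN2, which are membrane receptors of DKK proteins and are not secreted. Of 12 tested, 3 rose (25.0%) and 2 fell (16.7%) on day 3 against day 0, beside 8.96% and 11.6% of all genes tested. Of 11 tested, 2 rose (18.2%) and 5 fell (45.5%) on day 5 against day 3, beside 5.93% and 6.68%. The 2 that rose were DKK1 and KREMEN1. For day 5 against day 0, 2 of 11 rose (18.2%) and 3 fell (27.3%), beside 12.2% and 14.7% (median log2 -0.16). SFRP1 and SFRP2, soluble proteins with a Frizzled-like WNT-binding domain, were the most abundant, and SFRP1 fell to 88.9 FPKM on day 5, against 243 on day 0. SFRP2, at 211, 172 and 224 FPKM, was not called. DKK1, which blocks the LRP co-receptors, stood at 0.207, 3.37 and 31.3 FPKM.

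Downstream of the receptor, 12 cytoplasmic and nuclear transducers were tested. On day 3 against day 0, 1 rose and 1 fell (8.33% each way), beside 8.96% and 11.6% of all genes tested. In the step to day 5, 0 rose and 3 fell (25.0%), beside 5.93% and 6.68%. Over both steps, day 5 against day 0, 2 rose and 2 fell (16.7% each way), beside 12.2% and 14.7% (median log2 -0.055). Of the Dishevelled genes, which bind the motif shown above, DVL2 rose on day 5 over day 0 (log2 0.71 ± 0.32) at q = 0.0498 in the authors' deposited table. DVL1 (log2 -0.46 ± 0.27) and DVL3 (log2 -0.08 ± 0.36) were not called. TCF7L1, a TCF factor that represses targets in ES cells, stood at 84.9, 39.3 and 12.8 FPKM. Of 7 feedback targets of beta-catenin, 6 rose on day 3 over day 0 and 0 fell, 4 rose and 1 fell on day 5 against day 3, and 6 rose and 0 fell on day 5 over day 0. APCDD1, a membrane inhibitor of WNT signalling, stood at 1.91, 39.5 and 171 FPKM, and SP5, a repressor of other WNT targets, at 1.42, 118 and 52.0 FPKM. Of 10 planar cell polarity genes, 4 rose and 2 fell on day 3 against day 0, beside 8.96% and 11.6% of all genes tested. Then 1 of the 10 rose and 1 fell on day 5 against day 3, near the 5.93% and 6.68% of all genes. Over both steps 4 rose and 2 fell, beside 12.2% and 14.7% (median log2 0.42). VANGL2, a partner of FZD3 and FZD6 in polarity, stood at 27.0, 53.9 and 63.6 FPKM, and PRICKLE1 at 9.40, 1.68 and 1.01 FPKM, so both were called between days 0 and 5, in opposite directions.

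**Figure D5:**
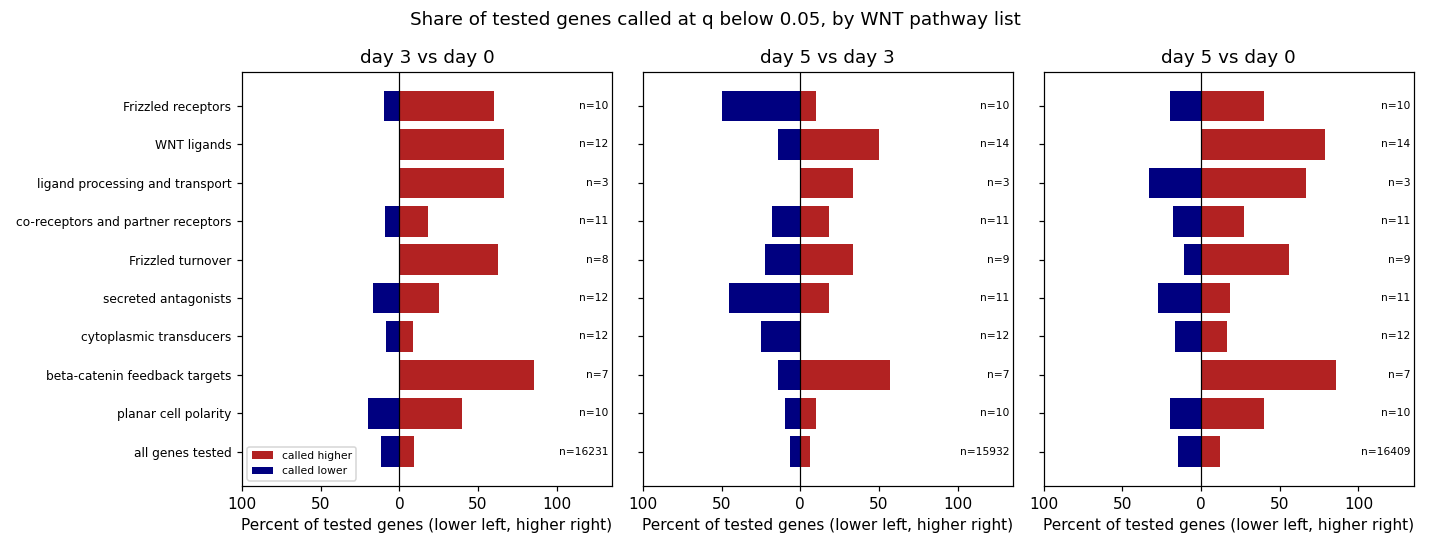
Percent of tested genes called higher (right) and lower (left) at q below 0.05, for the Frizzled receptors, the other WNT pathway lists and all genes tested, in the 3 comparisons, with the number tested at the right of each bar. Of the 10 receptors 6 are higher on day 3 over day 0 and 5 are lower on day 5 against day 3, where 7 of the 14 WNT ligands are higher.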

How the data were processed

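Poly-adenylated RNA was measured in 6 libraries, 2 for each of 3 days. The submitters' processing notes list Cuffdiff 2.1.1, TopHat2 2.0.10 and, unversioned, TopHat, with the build hg19. The gene annotation is not given in the sources used here. Per the file headers, the deposited table holds 1 FPKM value per gene and group with its libraries combined, the test statistic (a score) of Cuffdiff, and the authors' p-value and q-value. It has 69852 rows, of which 48572 were tested. The deposited q equals the Benjamini-Hochberg adjustment over all tested rows to within 5.25e-07, and the smallest deposited p-value, 5.0e-05, is shared by 4078 rows. The depth of each library is unknown.

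From the table, log2 ratios of FPKM (later over earlier day), implied standard errors (log2 ratio divided by the deposited test statistic), errors of single days (solved from the 3 pairwise errors) and 95% intervals were computed with Python 3.11.15, pandas 2.3.3, numpy 2.4.6 and scipy 1.17.1. Differences between members use the combined standard error, with no test. With 1 value per group, no test of replicates was possible here. Coding sequences came from GENCODE v29 and were aligned with Biopython 1.88, and promoters came from RefSeq. Start positions were read as counted from 0, since 1901 genes then matched the length in the reference, against 253 otherwise. The genes most like a member were sought among genes with at least 5 FPKM on any day, and 1 of them is not reported here. Apart from the 10 receptors, up to 3 genes per list were named, among those called in any comparison. The order was the size of their change between days 0 and 5 on the scale of log2 of FPKM plus 1. The others were named after their values were seen. In the pathway lists these were TSPAN12, LRP5, LRP6, GPC3, NDP, RNF43, ZNRF3, LGR4, RSPO4, SFRP2, KREMEN1, KREMEN2, SMO and the Dishevelled genes. In the marker lists they were FOXD3, ETS1, SOX1, SOX21, GSC, MESP1, EOMES, SOX17 and PECAM1. The members and lists were chosen with earlier results of these data known. The computation was run on simulated data built with the same formulas for errors and a normal p. That run checks the arithmetic and cannot show whether the implied errors hold for these libraries. Alternatives were other thresholds, adjustments, pseudocounts and scalings.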

Additional observations from a re-analysis of the deposited data

How the results depend on the processing

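No paired analysis was possible because the table holds 1 combined value per group, and leaving out a replicate could not be run for the same reason. With a normal p computed from the test statistic, the number of Frizzled genes called lower on day 3 against day 0 is 0 in place of 1 (FZD5). Scaled without MIR1244-1, MIR1244-3 and MIR4461, small RNA genes which hold 27.0%, 25.9% and 21.9% of all FPKM on days 0, 3 and 5, the family sum on day 5 is 177 FPKM in place of 161. These scalings, the median set to 0 and the upper quartile, moved the log2 ratios by between -0.05 and 0.15, and no called ratio changed direction. The uncalled ratio of FZD4 on day 5 against day 0 changed sign without the small RNA genes (0.0052). That of FZD6 on day 3 against day 0 did so with the median set to 0 (-0.04) and with upper quartile scaling (-0.03). A pseudocount of 1 FPKM moved 6 of the 30 log2 ratios by over 1 implied standard error, 2 each of FZD10, FZD1 and FZD5, and a pseudocount of 0.1 moved 2, both of FZD10 (4.59 and 6.06). At a q threshold of 0.01, FZD9 on day 5 against day 3 and FZD2 on day 5 against day 0 are no longer called. Precision is limited by 2 libraries per group of unknown depth.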
